A study of Mus musculus with 14 samples.

Results

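Islet hormone genes are the 10 genes Ins1, Ins2, Iapp, Ucn3, Gcg, Sst, Ppy, Pyy, Ghrl and Npy, chosen by name as the peptide products of the endocrine cells of the pancreas. For each gene the row of the deposited table that the array's gene annotation assigns to it was taken, and 9 of the 10 genes had such a row, each 1 row with 1 gene symbol, among 35556 rows in all. Ins1 was not analysed here. The rows were read on 14 arrays of isolated pancreatic islets from untreated mice at 11 weeks of age, on a mixed C57BL/6 and NMRI background. The 5 control arrays came from mice whose genotype the labels give no further. The 4 Pdx-1+/- arrays came from mice in which the Pdx-1-tTA allele leaves less than the full dose of Pdx-1. The 5 IKK2-CA arrays came from diabetic IKK2-CApdx-1 mice, in which that allele drives constitutively active IKK2 in β-cells, so that the driver allele is shared by both mutant groups and absent as a label from the controls. Active IKK2 and diabetes were labelled together, and their parts in a difference from Pdx-1+/- islets cannot be told apart. In a difference between IKK2-CA and control islets, the driver allele with its lower Pdx-1 dose comes in as well. Its part there cannot be told apart from those of active IKK2 and diabetes.

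An islet is a small organ of several endocrine cell types, each known by the hormone it secretes. β-cells make insulin (Ins1 and Ins2 in mice, near-identical gene copies that the probes may not separate) and amylin (Iapp), and mature mouse β-cells also make urocortin 3 (Ucn3), a peptide that acts on the δ-cell receptor Crhr2. α-cells make glucagon (Gcg), which raises blood glucose, δ-cells make somatostatin (Sst), which restrains the other cells, and PP cells make pancreatic polypeptide (Ppy). Peptide YY (Pyy) and neuropeptide Y (Npy) belong to the same family as pancreatic polypeptide, and ghrelin (Ghrl) marks the rare ε-cells. Pdx1 is a homeodomain transcription factor of β- and δ-cells whose known targets include the insulin, Iapp and Sst genes.

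Promoters are shown for the genes that passed the test below in 1 comparison, Ucn3 and Sst, and for Iapp and Gcg, hormones of β- and α-cells that did not. Each runs 5′ to 3′ along the gene's own strand, from 250 bases before to 50 bases after the annotated start, from RefSeq on build GRCm38.p6. Capitals mark every match on either strand to TAAT, the core that homeodomain factors such as Pdx1 bind (ATTA on the other strand), to TGACGTCA, the cyclic AMP response element, or to TATAAA, the TATA box. GCCATCTG, an E-box of the insulin promoters, was searched too and is in none of the 4 windows shown. The windows are Ucn3 at chr13:3945300-3945599 (minus strand), Iapp at chr6:142298175-142298474 (plus strand), Sst at chr16:23890795-23891094 (minus strand) and Gcg at chr2:62483604-62483903 (minus strand).
Ucn3: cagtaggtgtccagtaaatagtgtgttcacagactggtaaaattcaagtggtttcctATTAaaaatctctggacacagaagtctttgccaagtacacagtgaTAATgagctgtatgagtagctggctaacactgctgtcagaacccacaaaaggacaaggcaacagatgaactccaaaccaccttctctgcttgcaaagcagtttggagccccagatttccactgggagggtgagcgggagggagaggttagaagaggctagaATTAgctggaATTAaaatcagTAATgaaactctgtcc
Iapp: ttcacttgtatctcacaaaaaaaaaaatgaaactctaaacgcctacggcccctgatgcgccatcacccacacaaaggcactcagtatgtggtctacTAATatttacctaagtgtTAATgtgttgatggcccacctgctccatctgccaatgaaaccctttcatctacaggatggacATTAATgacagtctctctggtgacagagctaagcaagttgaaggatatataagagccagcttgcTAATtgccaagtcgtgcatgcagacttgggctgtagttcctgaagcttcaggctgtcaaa
Sst: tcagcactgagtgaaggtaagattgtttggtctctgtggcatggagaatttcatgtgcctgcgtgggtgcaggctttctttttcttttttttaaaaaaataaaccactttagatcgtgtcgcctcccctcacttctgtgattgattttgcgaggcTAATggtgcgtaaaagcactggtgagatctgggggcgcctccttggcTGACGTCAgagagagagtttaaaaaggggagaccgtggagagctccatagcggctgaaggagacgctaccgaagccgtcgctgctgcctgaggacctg
Gcg: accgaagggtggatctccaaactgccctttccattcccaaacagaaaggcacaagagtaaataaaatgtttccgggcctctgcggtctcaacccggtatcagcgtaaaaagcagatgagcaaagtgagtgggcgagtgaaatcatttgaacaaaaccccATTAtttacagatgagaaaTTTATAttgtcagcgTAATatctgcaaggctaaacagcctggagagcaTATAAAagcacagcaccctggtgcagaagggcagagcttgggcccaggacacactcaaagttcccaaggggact
Ucn3 and Iapp each held 5 matches to TAAT, of which 2 in Iapp overlap each other on opposite strands, Gcg held 2 and Sst 1. TAAT is short and was found in 58.0% of the 32851 RefSeq promoter windows of mouse. Sst also held TGACGTCA, starting 48 bases before the transcript start, a match found in 1.79% of windows, and Gcg held TATAAA on both strands, found in 13.6%. Of the other windows, that of Ppy held TATAAA and those of Pyy, Ghrl and Npy held none of the 4 motifs. That of Ins1 held 3 matches to TAAT and 2 to GCCATCTG (1.32% of windows). The GCCATCTG matches began 86 bases before the transcript start and after it. A match describes these letters and not a bound site.

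The genes share little by position. Ppy (chromosome 11, 102099931 to 102101319) and Pyy (102106676 to 102107832) are neighbours 5356 bases apart with 0 other annotated genes between them, and Iapp, Ghrl and Npy lie far from each other on chromosome 6. Ins2 is on chromosome 7, Gcg on 2, Sst on 16 and Ucn3 on 13 (GRCm38.p6).

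Some arrays stand apart in genes of other tissues. Sis, an enzyme of the intestinal brush border, read 9.16 on Pdx-1+/- array 4 and 6.05 on control array 3 against 3.18 to 3.45 on the others, and Adipoq, the adipocyte hormone adiponectin, read 10.60 on IKK2-CA array 5 against 5.13 to 7.38 elsewhere. Over 12 measured leukocyte markers of 14 listed, the mean was 7.50 to 8.84 on the IKK2-CA arrays, highest on array 5, and 7.08 to 7.35 on all others. The members of that list moved unequally between control and IKK2-CA islets. The group mean of the chemokine Ccl17 went from 6.02 to 10.82, Itgax from 5.70 to 7.85 and Ptprc from 7.17 to 8.18. Those of Adgre1 (8.42 and 8.47), Csf1r (9.75 and 9.74), Lyz2 (11.48 and 11.52), Itgam (6.96 and 7.02) and Cd79a (6.35 and 6.32) hardly moved. The 12 measured acinar markers of 16 listed averaged 12.40 to 12.93 over the arrays. All of them except Ptf1a and Bhlha15 had means of 13.31 to 13.68 over the arrays, near the top of the scale. Ptf1a spanned 6.83 to 9.33 and Bhlha15 8.40 to 10.53, so the narrow range of the list mean does not show a steady acinar content. The 10 measured β-cell markers of 12 listed averaged 10.22 to 10.99 on control arrays, 9.67 to 10.06 on Pdx-1+/- arrays and 8.99 to 10.17 on IKK2-CA arrays. The 10 measured enteroendocrine markers of 11 listed averaged 5.96 on Pdx-1+/- array 4, the highest of the 14 arrays, and 5.48 to 5.71 on the others. Among them, the gut hormone gene Gip reached 5.45 on control, 5.96 on Pdx-1+/- and 5.12 on IKK2-CA arrays. Cck reached 4.48, 4.98 and 5.36 in the same order. Results that passed a test are given with and without control array 3, Pdx-1+/- array 4 and IKK2-CA array 5, as are those of hormone genes that these arrays move.

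The signal is a log2 value in which 1 unit is a doubling, and it compares arrays for 1 gene, not genes with each other. Each array's highest value was 13.85 to 13.96. Gcg, Iapp, Ppy and Ins2 lay on average 0.72, 0.81, 0.87 and 1.3 log2 below that maximum, Sst 1.69 and Pyy 2.17, whereas Ucn3, Npy and Ghrl lay 4.62, 5.75 and 7.31 below it. Near the top of the scale, differences were small for nearly all genes. Of the 82 tested rows with a mean of 12 or over, the median spread between arrays of a group (residual SD) was 0.10 log2, against 0.19 for the 6569 rows from 7 to 9, and 1 of 82 passed in IKK2-CA against control, which was Sst. Ins2 had a residual SD of 0.08 and Ucn3 one of 0.87, a spread that 0.448% of all rows exceeded. The plot of spread against signal shows Ins2 as the member below the median of its range. How far the small changes of Ins2, Iapp, Gcg and Ppy come from this position on the scale was not tested.

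**Figure D1:**
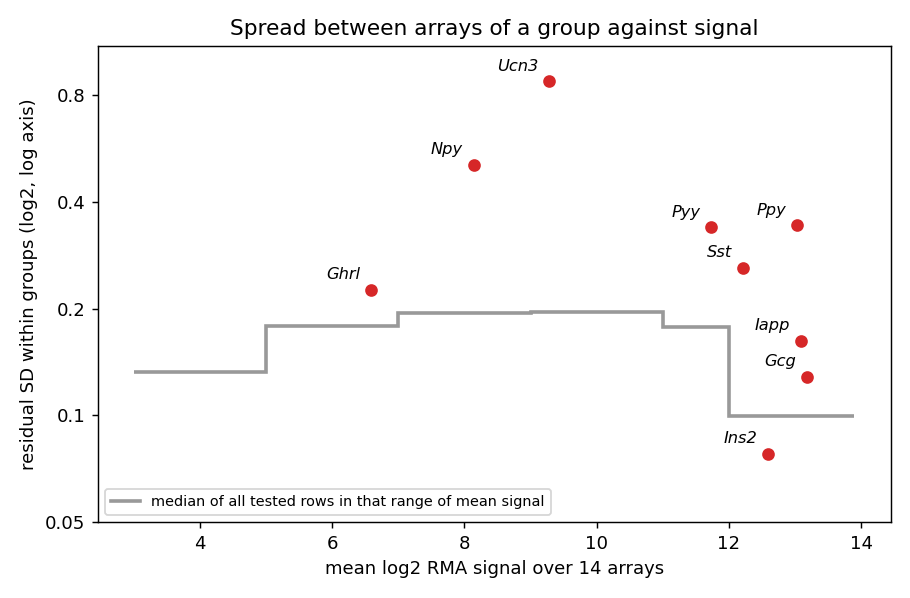
Residual SD within groups (log2 units, log axis) against the mean log2 RMA signal over 14 arrays for the 9 hormone genes (red points), with the median residual SD of all tested rows in 6 ranges of mean signal (grey steps). The grey line drops to 0.10 at a mean of 12 and over, where Ins2, Iapp, Gcg, Ppy and Sst lie, while Ucn3 stands at 0.87 and Npy at 0.51.

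Ucn3 and Sst were the hormone genes whose signal was lower in IKK2-CA islets than in control islets, and Ins2, Iapp, Gcg, Ppy, Pyy, Ghrl and Npy did not pass in any comparison. Each gene was tested with limma in 1 fit over all 14 arrays, and the p was adjusted by Benjamini and Hochberg over 20738 rows, with a threshold of 0.05. In IKK2-CA against control 2 of 9 hormone genes fell and 0 rose, where 1.49% of all rows fell, 0.69% rose and 2.18% passed in either direction. In Pdx-1+/- against control 0 of 9 passed, where 0.0868% of all rows did, and in IKK2-CA against Pdx-1+/- 0 of 9 passed, where 0.0964% did. At an unadjusted limma p under 0.05 the counts were 4, 3 and 0 of 9, where 15.6%, 4.67% and 7% of all rows lay under it. By exact two-sided permutation of the arrays of 2 groups, unadjusted, they were 5, 3 and 0. That test was run on the hormone genes alone, so its counts have no share over all rows to be judged against. The median difference of the 9 genes was −0.19, −0.13 and −0.13 log2 in the 3 comparisons, against −0.011, −0.0042 and −0.014 over all rows. In none of the 9 genes were the arrays of any pair of groups fully separated, which was so for 4.14% of all rows in IKK2-CA against control (1.87% higher, 2.27% lower), 1.85% in Pdx-1+/- against control (0.492% higher, 1.36% lower) and 2.44% in IKK2-CA against Pdx-1+/- (1.74% higher, 0.699% lower).

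**Figure D2:**
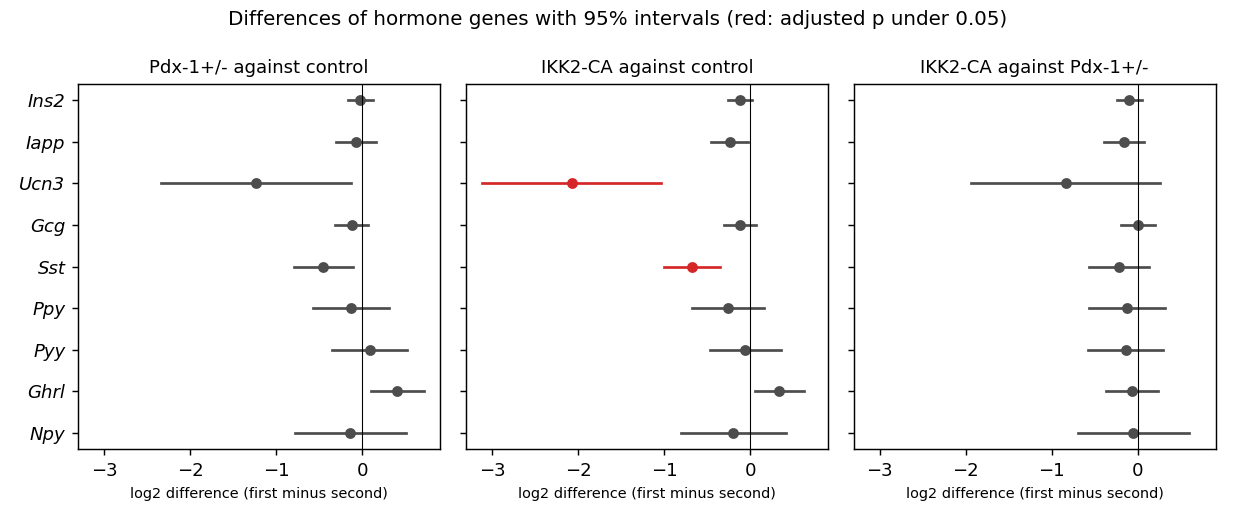
Log2 difference (first group minus second) of each hormone gene in the 3 comparisons, with 95% intervals from the limma fit; red marks an adjusted p under 0.05. Ucn3 (−2.07) and Sst (−0.67) in IKK2-CA against control are the red points, and the intervals of Ucn3 are the widest in each panel.

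Among the β-cell hormones, Ucn3 had the widest range. Its log2 signal was 10.11, 9.61, 10.77, 10.80 and 10.59 on control arrays 1 to 5, 9.76, 9.34, 9.0 and 8.46 on Pdx-1+/- arrays 1 to 4, and 8.46, 9.35, 6.82, 9.68 and 7.19 on IKK2-CA arrays 1 to 5. All Pdx-1+/- arrays except array 1 and all IKK2-CA arrays except array 4 lay below every control array, and the IKK2-CA arrays were divided, with arrays 3 and 5 far below the rest. In order of level the groups were control at 10.37 ± 0.51 (SD, n = 5), Pdx-1+/- at 9.14 ± 0.55 (SD, n = 4) and IKK2-CA at 8.30 ± 1.27 (SD, n = 5). IKK2-CA islets were 4.21-fold lower than control islets (log2 −2.07, SE 0.49, 95% interval −3.11 to −1.04, limma adjusted p = 0.0422; unadjusted exact permutation p = 0.0159). Of the 1702 tested rows with a mean from 9 to 11, Ucn3 had the largest difference in that comparison. The neighbouring groups in this order did not differ beyond their spread after adjustment. Pdx-1+/- against control gave a log2 difference of −1.24 (SE 0.51, 95% interval −2.34 to −0.13, limma adjusted p = 0.999; unadjusted exact permutation p = 0.0238). IKK2-CA against Pdx-1+/- gave −0.84 (SE 0.51, 95% interval −1.94 to 0.26, limma adjusted p = 0.843). In position among the 35556 rows of an array, Ucn3 ranked 861 to 2125 from the top on control arrays, 1936 to 4936 on Pdx-1+/- arrays and 2158 to 12839 on IKK2-CA arrays.

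The call of Ucn3 was not stable to the choice of arrays, although its direction was the same in all 26 alternative fits (−2.42 to −1.70), of which 10 passed. With IKK2-CA array 5 and Pdx-1+/- array 4 left out, the difference from control was −1.80 (limma adjusted p = 0.0632), and without control array 3 as well it was −1.70 (adjusted p = 0.155). Leaving out 1 array at a time, the limma adjusted p exceeded 0.05 without control array 1 (0.0751), 3 (0.129), 4 (0.112) or 5 (0.101), Pdx-1+/- array 1 (0.0545), 2 (0.0602) or 3 (0.062), or IKK2-CA array 1 (0.07), 3 (0.0978) or 5 (0.0897). With the replicate number as a block it was 0.101. Both IKK2-CA arrays with the lowest Ucn3 also had the highest leukocyte means of the 14 arrays, 8.12 on array 3 and 8.84 on array 5. Array 4, with the highest Ucn3 of its group, had the lowest leukocyte mean of its group (7.50). After subtraction of group means, Ucn3 and the leukocyte list had r = −0.61 over the 14 arrays (rho = −0.38). Without the 2 farthest arrays r was −0.22, and no test was made. The mean of the 10 measured β-cell markers, Ucn3 among them, was 9.16 on IKK2-CA array 3 and 8.99 on array 5, the lowest of the 14 arrays. It was 10.17 on IKK2-CA array 4, the highest of its group. Against the 7 of those markers that are not hormones, Ucn3 had r = 0.86 (rho = 0.88, r = 0.76 without the 2 farthest arrays), also with no test. Array 5 also had the highest adipocyte mean, 9.88 against at most 7.71 elsewhere. In whole islets fewer β-cells and less Ucn3 RNA per β-cell cannot be told apart.

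Ins2 and Iapp, the other β-cell hormones, varied little. Ins2 read 12.66, 12.60, 12.61, 12.68 and 12.66 on control arrays, 12.62, 12.64, 12.62 and 12.60 on Pdx-1+/- arrays, and 12.56, 12.59, 12.31, 12.62 and 12.53 on IKK2-CA arrays. All IKK2-CA arrays except array 4 lay below every control array, by little. The group means were 12.64 ± 0.03 (SD, n = 5), 12.62 ± 0.02 (SD, n = 4) and 12.52 ± 0.12 (SD, n = 5), and IKK2-CA array 3, also the lowest for Ucn3, was the lowest of the 14. The difference between IKK2-CA and control islets was −0.12 log2 (SE 0.07, 95% interval −0.26 to 0.02, limma adjusted p = 0.423; unadjusted exact permutation p = 0.0317), and that between Pdx-1+/- and control islets −0.02 (95% interval −0.17 to 0.13, adjusted p = 0.999). With IKK2-CA array 5 and Pdx-1+/- array 4 left out these were −0.12 and −0.01. Iapp read 13.14, 13.04, 13.26, 13.34 and 13.20 on control arrays, 13.12, 13.30, 13.20 and 12.86 on Pdx-1+/- arrays, and 12.91, 13.10, 12.76, 13.19 and 12.83 on IKK2-CA arrays. The groups overlapped, and the lowest arrays were IKK2-CA 3, 5 and 1 and Pdx-1+/- 4. IKK2-CA against control gave −0.24 (SE 0.10, 95% interval −0.46 to −0.02, limma adjusted p = 0.269; unadjusted exact permutation p = 0.0476), Pdx-1+/- against control −0.08 (95% interval −0.31 to 0.15, adjusted p = 0.999), and IKK2-CA against Pdx-1+/- −0.16 (95% interval −0.39 to 0.07, adjusted p = 0.874). With IKK2-CA array 5 and Pdx-1+/- array 4 left out, Iapp in Pdx-1+/- against control was at 0.0083.

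**Figure D3:**
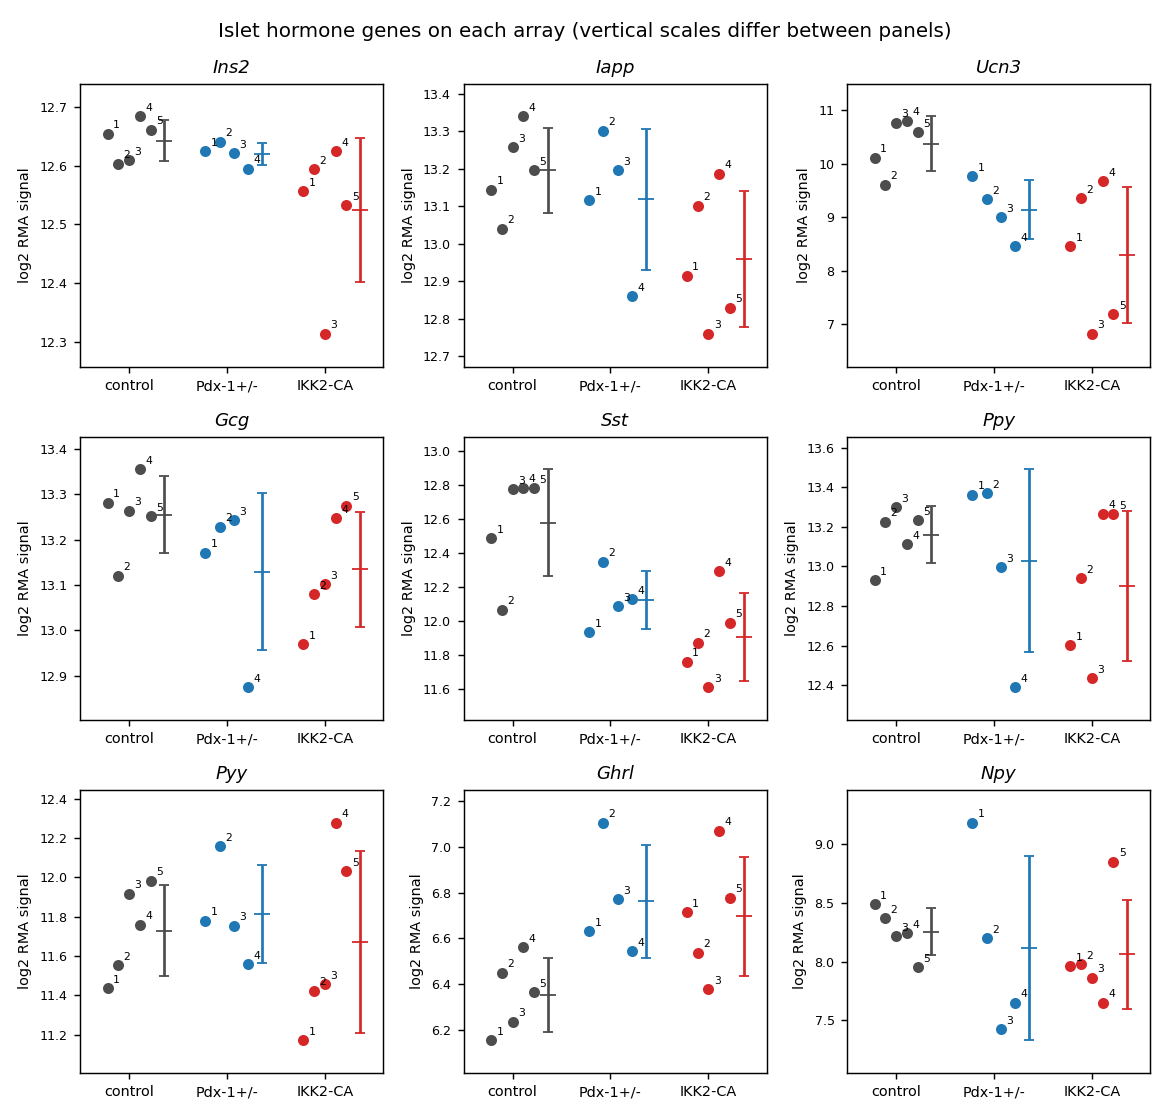
Log2 RMA signal of each measured hormone gene on the 14 arrays (points, labelled by replicate number; 5 control, 4 Pdx-1+/- and 5 IKK2-CA), with group mean and SD beside them; vertical scales differ between panels. Ucn3 spans 6.82 to 10.80 and Sst 11.61 to 12.78, with all IKK2-CA arrays except array 4 below every control array, while Ins2 spans 12.31 to 12.68.

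Sst, the δ-cell hormone, was lower in IKK2-CA islets than in control islets. It read 12.48, 12.06, 12.77, 12.78 and 12.78 on control arrays, 11.93, 12.35, 12.09 and 12.13 on Pdx-1+/- arrays, and 11.76, 11.87, 11.61, 12.29 and 11.99 on IKK2-CA arrays. Control array 2 lay within the range of both other groups, and all IKK2-CA arrays except array 4 lay below every control array. In order of level the means were 12.58 ± 0.31 (SD, n = 5) in control, 12.12 ± 0.17 (SD, n = 4) in Pdx-1+/- and 11.90 ± 0.26 (SD, n = 5) in IKK2-CA islets. IKK2-CA islets were 1.59-fold lower than control islets (log2 −0.67, SE 0.15, 95% interval −1.0 to −0.35, limma adjusted p = 0.0367; unadjusted exact permutation p = 0.0159). Among the 82 tested rows with a mean of 12 or over, Sst had the largest difference in that comparison and in Pdx-1+/- against control, where it was −0.45 (SE 0.16, 95% interval −0.80 to −0.11, limma adjusted p = 0.834; unadjusted exact permutation p = 0.0476). IKK2-CA and Pdx-1+/- islets were not separated, at −0.22 (95% interval −0.56 to 0.13, adjusted p = 0.89). Both differences use the same control arrays.

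The call of Sst held in 13 of 26 alternative fits, all of them negative (−0.80 to −0.60). It was at −0.69 with IKK2-CA array 5 and Pdx-1+/- array 4 left out (limma adjusted p = 0.0498) and at −0.64 without control array 3 as well (adjusted p = 0.132). The limma adjusted p exceeded 0.05 without control array 1 (0.0655), 3 (0.123), 4 (0.104) or 5 (0.0978), Pdx-1+/- array 3 (0.0544), or IKK2-CA array 1 (0.0755), 2 (0.0732), 3 (0.1) or 5 (0.0578), and without control array 2, the lowest control array, it was 0.00654. With the replicate number as a block it was 0.0708. The 5 measured δ-cell markers of 6 listed, Sst among them, averaged 8.14 in control islets, 7.82 in Pdx-1+/- islets and 7.80 in IKK2-CA islets. Rbp4, a retinol carrier also made by δ-cells, was at 9.81, 9.07 and 9.05 in the same order and fell in IKK2-CA against control, as given below. Ghsr, the ghrelin receptor, was at 6.52, 6.44 and 6.38, and the transcription factors Pou3f4 at 5.62, 5.41 and 5.41 and Hhex at 6.15, 6.07 and 6.28, and these 3 did not pass. The part of δ-cell number in the lower Sst signal was not tested.

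Gcg, the α-cell hormone, differed by at most 0.13 log2 between group means. It read 13.28, 13.12, 13.26, 13.36 and 13.25 on control arrays, 13.17, 13.23, 13.24 and 12.88 on Pdx-1+/- arrays and 12.97, 13.08, 13.10, 13.25 and 13.28 on IKK2-CA arrays. Pdx-1+/- array 4, which carries the intestinal genes, was the lowest of the 14. The same array had the highest acinar mean of the 14 (12.93). After subtraction of group means, Gcg had r = −0.67 with the intestinal list and −0.69 with the acinar list. The part of intestinal or acinar RNA in the Gcg signal was not tested. The 95% intervals were −0.30 to 0.06 for IKK2-CA against control, −0.32 to 0.07 for Pdx-1+/- against control and −0.19 to 0.20 for IKK2-CA against Pdx-1+/- (limma adjusted p = 0.575, 0.999 and 0.997). The last difference, 0.0053, was −0.11 with IKK2-CA array 5 and Pdx-1+/- array 4 left out.

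Ppy and Pyy, of the pancreatic polypeptide family, were spread more widely within groups than Gcg. Ppy ranged from 12.93 to 13.30 on control arrays, 12.39 to 13.37 on Pdx-1+/- arrays and 12.44 to 13.27 on IKK2-CA arrays. Its lowest reading was that of Pdx-1+/- array 4, followed by IKK2-CA arrays 3 and 1. The difference from control was −0.26 for IKK2-CA (SE 0.20, 95% interval −0.68 to 0.16, limma adjusted p = 0.602) and −0.13 for Pdx-1+/- (95% interval −0.58 to 0.31, adjusted p = 0.999). Without Pdx-1+/- array 4 the latter was 0.08. Pyy ranged from 11.43 to 11.98, 11.56 to 12.16 and 11.17 to 12.28 in the same order of groups. IKK2-CA arrays lay at both ends, with arrays 4 and 5 above and arrays 1 and 2 below every control array, and the difference from control was −0.06 (SE 0.19, 95% interval −0.47 to 0.36, adjusted p = 0.942). Pdx-1+/- against control was at 0.08 (95% interval −0.36 to 0.52, adjusted p = 0.999). With IKK2-CA array 5 and Pdx-1+/- array 4 left out, these differences of Pyy were −0.15 and 0.17.

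Ghrl was the member with higher means in both mutant groups, and it passed in neither. It read 6.16, 6.45, 6.24, 6.56 and 6.37 on control arrays, 6.63, 7.10, 6.77 and 6.55 on Pdx-1+/- arrays, and 6.72, 6.54, 6.38, 7.07 and 6.78 on IKK2-CA arrays. On 3 of 4 Pdx-1+/- arrays and 3 of 5 IKK2-CA arrays it lay above every control array. The difference from control was 0.41 for Pdx-1+/- (1.33-fold, SE 0.14, 95% interval 0.11 to 0.71, limma adjusted p = 0.803; unadjusted exact permutation p = 0.0238) and 0.34 for IKK2-CA (1.27-fold, SE 0.13, 95% interval 0.06 to 0.63, limma adjusted p = 0.216; unadjusted exact permutation p = 0.0476). These comparisons share the control arrays. Pdx-1+/- array 4, with the intestinal genes, was the lowest Ghrl array of its group, and without it and IKK2-CA array 5 the differences were 0.48 and 0.32. Ghrl ranked 11463 to 16264 among the 35556 rows, and the median of the tested rows on an array was 6.44 to 6.54. The table gives no detection call, and whether the Ghrl reading lies above background was not tested.

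Npy, a peptide of nerves as well as islets, separated single arrays rather than groups. It read 8.49, 8.37, 8.22, 8.24 and 7.95 on control arrays, 9.18, 8.20, 7.42 and 7.65 on Pdx-1+/- arrays and 7.96, 7.98, 7.86, 7.65 and 8.85 on IKK2-CA arrays. Pdx-1+/- array 1 and IKK2-CA array 5 lay above every control array. The group means were 8.25 ± 0.20 (SD, n = 5), 8.11 ± 0.78 (SD, n = 4) and 8.06 ± 0.46 (SD, n = 5), and no difference passed (limma adjusted p = 0.835 to 0.999). IKK2-CA against control was −0.19 (95% interval −0.80 to 0.42) and became −0.39 without IKK2-CA array 5 and Pdx-1+/- array 4, while Pdx-1+/- against control went from −0.14 to 0.01. Over 11 measured autonomic neuron and glia markers of 13 listed, the mean was 5.98 on Pdx-1+/- array 1, the highest of its group (the others 5.69 to 5.82). It was 5.69 on IKK2-CA array 5, whose group spanned 5.66 to 5.84, and 5.92 to 6.04 on control arrays, where Npy was 7.95 to 8.49. Members of that list moved unequally over control, Pdx-1+/- and IKK2-CA islets. The group means were 7.59, 6.37 and 6.10 for Th, 4.57, 4.68 and 4.54 for Dbh, and 6.01, 6.23 and 6.12 for Sox10. After subtraction of group means, Npy and that list had r = 0.64 over the 14 arrays (rho = 0.57, r = 0.55 without the 2 farthest arrays), and Npy and the leukocyte list r = 0.60 (rho = 0.55, r = 0.38), with no test. Largest in size among the marker lists was the r of Npy with the acinar list, −0.67 (rho = −0.61, r = −0.47). The part of nerve, leukocyte or acinar RNA in the Npy signal was not tested. Dbh, which makes noradrenaline in sympathetic nerves, was 4.71 on Pdx-1+/- array 1 and 4.58 on IKK2-CA array 5, against 4.35 to 4.87 over all arrays.

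Some pairs of hormone genes varied together within groups. After group means were subtracted, Ucn3 and Iapp varied together over the 14 arrays (Pearson r = 0.85, Spearman rho = 0.81, and r = 0.82 without the 2 arrays farthest from the median). Ppy and Pyy did so with r = 0.75 (rho = 0.86, r = 0.82 without 2 arrays) and Sst and Pyy with r = 0.73 (rho = 0.70, r = 0.73), whereas Ucn3 and Gcg had r = 0.25 (rho = 0.19, r = 0.52). Against the mean of the 7 other measured β-cell markers, which leave out the hormones, r was 0.86 for Ucn3, 0.81 for Iapp, 0.49 for Ins2 and 0.66 for Sst, and 0.76, 0.77, 0.46 and 0.77 without the 2 farthest arrays. Against the acinar marker mean it was −0.76 for Ppy and −0.69 for Gcg, and −0.63 and −0.47 without the 2 farthest arrays. Most rows in that mean lie near the top of the scale, where differences were small. These correlations describe 36 gene pairs and marker lists on arrays that share 1 normalization, and carry no test.

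**Figure D4:**
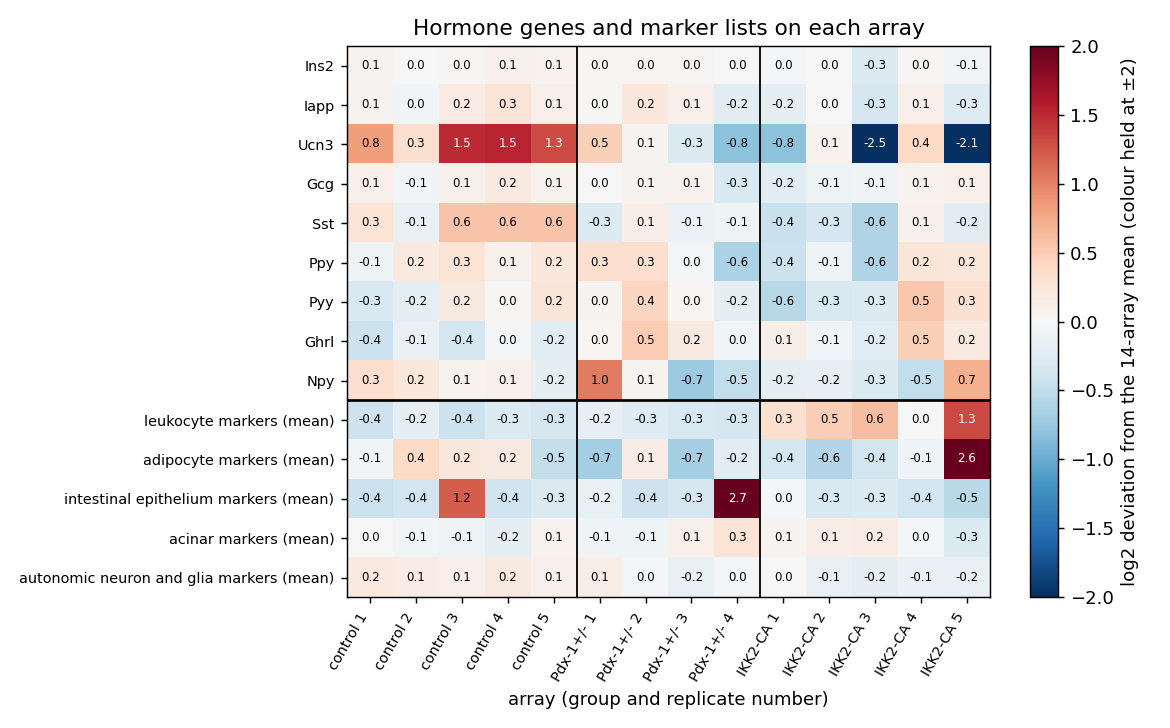
Distance of each array from the 14-array mean in log2 units (colour, held at ±2, and printed number, red above and blue below) for the 9 measured hormone genes and, under the line, the mean of 5 marker lists, by array. Ucn3 is lowest on IKK2-CA arrays 3 and 5, where the leukocyte mean is highest, the intestinal mean is highest on Pdx-1+/- array 4 and the adipocyte mean on IKK2-CA array 5. The β-cell marker mean, lowest on IKK2-CA arrays 5 and 3, is not drawn.

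The rows most like each hormone gene, by Pearson correlation after subtraction of group means over 14 arrays, were picked as the highest of 19938 rows with 1 symbol, and their size is in part a product of that search. For Ucn3 they were Tmod1, which caps actin filaments (r = 0.96), Gm572 (0.95) and Ddc, the aromatic amino acid decarboxylase (0.95). For Iapp they were Scg3 (0.96) and Scg2 (0.95), granins of secretory granules, and Ntrk2, the receptor of a neurotrophin (0.95). For Ins2 they were Frzb, a Wnt antagonist (0.92), Pank4 (0.91) and Rasd1 (0.90). For Gcg they were Septin2, Pafah1b1 and Krit1 (0.97, 0.97 and 0.96), for Sst Atf2, Stc1 and Pkp4 (0.91, 0.90 and 0.90), and for Ppy Ldlrad4, Ctbs and Trib2 (0.97, 0.95 and 0.94). For Pyy they were Zfp74, Dgcr8 and Gm609 (0.94, 0.91 and 0.89), for Ghrl Scara3, Fgd5 and Astn2 (0.89, 0.87 and 0.87), and for Npy Arsa, Srd5a3 and Pirt (0.93, 0.91 and 0.90).

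Of the transcription factors that act on hormone genes, Pdx1 and Mafa had lower signal in IKK2-CA than in control islets, 2 of 18 measured of 20 listed, with 0 higher. Over all rows, 1.49% fell and 0.69% rose in that comparison. The fall of Pdx1 was not an independent finding, because the driver allele of both mutant groups leaves less than the full dose of Pdx-1. Pdx1 read 7.98, 7.67, 8.62, 8.46 and 8.42 on control arrays, 7.32, 7.10, 7.27 and 6.85 on Pdx-1+/- arrays and 6.68, 6.86, 6.39, 7.44 and 5.97 on IKK2-CA arrays. It was −1.56 in IKK2-CA against control (SE 0.24, limma adjusted p = 0.00506) and −1.09 in Pdx-1+/- against control (SE 0.25, adjusted p = 0.22). Mafa, an activator of the insulin genes, was at −1.22 (SE 0.23, adjusted p = 0.0177) and −1.0 (SE 0.25, adjusted p = 0.306). For both Pdx1 and Mafa, all arrays of each mutant group lay below every control array. That was so for 2.27% of all rows in IKK2-CA against control and 1.36% in Pdx-1+/- against control. The list's median was −0.51 in IKK2-CA against control, with 17 of 18 negative, and −0.28 in Pdx-1+/- against control, with 18 of 18 negative, against −0.011 and −0.0042 over all rows. In IKK2-CA against Pdx-1+/- 0 of 18 passed (median −0.18), with Pdx1 at −0.47 (SE 0.25, adjusted p = 0.792) and Myt1, a zinc finger factor of endocrine cells, at −0.44 (SE 0.18, adjusted p = 0.654).

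Of the receptors for these hormones and their kin, 4 of 23 measured of 24 listed fell in IKK2-CA against control and 0 rose, where 1.49% of all rows fell and 0.69% rose. Gcgr, the glucagon receptor, was at −1.0 (SE 0.14, limma adjusted p = 0.00395) and Glp1r, the receptor for the glucagon-like peptide cut from the Gcg product, at −1.10 (SE 0.21, adjusted p = 0.017). Gipr, the receptor of the gut hormone GIP, was at −1.23 (SE 0.23, adjusted p = 0.0144) and Igf1r, a relative of the insulin receptor, at −0.62 (SE 0.11, adjusted p = 0.0144). The median of the list was −0.023, with 15 of 23 negative. In Pdx-1+/- against control these 4 were at −0.74, −0.61, −0.62 and −0.36 and did not pass (adjusted p = 0.11 to 0.949), and in IKK2-CA against Pdx-1+/- 0 of 23 passed.

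Of the genes that process and store hormones, Slc30a8, the zinc transporter of insulin granules, was the 1 of 18 measured of 20 listed that fell in IKK2-CA against control (−1.44, SE 0.30, limma adjusted p = 0.0253), where 1.49% of all rows fell. Ero1b, an oxidase that helps form the disulfide bonds of proinsulin, was at −0.54 (SE 0.14, adjusted p = 0.0635). The median was −0.23, with 16 of 18 negative. In the other comparisons 0 of 18 passed. Slc30a8 was at −0.75 in Pdx-1+/- against control (adjusted p = 0.999) and −0.69 in IKK2-CA against Pdx-1+/- (adjusted p = 0.712), Glrx at −0.45 in the former (adjusted p = 0.926) and Scg3 at −0.39 in the latter (adjusted p = 0.792).

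Of 27 measured other secreted peptides and carriers of 30 listed, Rbp4 was the 1 that fell in IKK2-CA against control (−0.76, SE 0.18, limma adjusted p = 0.0397), where 1.49% of all rows fell. It was at −0.74 in Pdx-1+/- against control (SE 0.19, adjusted p = 0.309) and −0.03 in IKK2-CA against Pdx-1+/- (adjusted p = 0.997). The list's median was 0.045 in IKK2-CA against control. Adcyap1, the neuropeptide PACAP, was at −0.33 there (adjusted p = 0.217), Cartpt at 0.41 in Pdx-1+/- against control (adjusted p = 0.999), and Calcb (0.55, adjusted p = 0.571) and Nmb (−0.26, adjusted p = 0.711) in IKK2-CA against Pdx-1+/-. Across the 4 lists 8 genes fell in IKK2-CA against control, and 0 passed in the other comparisons. Of these, Pdx1, Mafa, Glp1r and Slc30a8 are also on the β-cell marker list. The mean of that list was 10.70 in control, 9.95 in Pdx-1+/- and 9.53 in IKK2-CA islets. For these genes too, fewer β-cells and less RNA per β-cell cannot be told apart. Leaving out 1 array, the count in IKK2-CA against control ranged from 3 (without control array 3) to 16 (without control array 2 or IKK2-CA array 4). That of Pdx-1+/- against control ranged from 0 to 2.

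These 8 calls differed in how far they rested on single arrays. All 26 alternative fits passed for Pdx1, whose dose the driver allele lowers, and for Gcgr. For the others, 25 passed for Igf1r, 24 for Gipr, 23 for Mafa, 22 for Glp1r, 18 for Slc30a8 and 12 for Rbp4, and all were negative. With IKK2-CA array 5 and Pdx-1+/- array 4 left out, all 8 passed, at −1.39 for Pdx1, −1.08 for Mafa, −0.93 for Gcgr, −0.94 for Glp1r, −1.09 for Gipr, −0.61 for Igf1r, −1.29 for Slc30a8 and −0.83 for Rbp4. With control array 3 left out as well, Pdx1 (−1.29, limma adjusted p = 0.0135), Gcgr (−0.88, adjusted p = 0.0119) and Igf1r (−0.61, adjusted p = 0.047) passed. Mafa (adjusted p = 0.0931), Glp1r (0.0681), Gipr (0.0627), Slc30a8 (0.11) and Rbp4 (0.0673) did not. Without control array 3 alone the same 5 lost their call (limma adjusted p = 0.0634, 0.0589, 0.0525, 0.0864 and 0.129 in that order). Slc30a8 also lost it without control array 1, 4 or 5 or IKK2-CA array 5, Glp1r without control array 4 or 5, and Rbp4 without every other array except control array 2, Pdx-1+/- array 4 and IKK2-CA arrays 4 and 5.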

How the data were processed

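Per the series' design text and the submitters' processing notes, total RNA of isolated islets was labelled by a whole-transcript sense method and hybridised to Affymetrix Mouse Gene 1.0 ST arrays, and the authors summarised signals by the robust multichip average in Affymetrix Expression Console. The software version is not stated in those sources. What the authors deposited is 1 log2 signal for each transcript cluster and array; the base of the logarithm was read from the range of the values. With arrays, their number limits the precision.

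Of 35556 rows, 23410 have an entry in the gene table of the array and 12146 have none. Rows with the same annotation were reduced to that with the highest mean over the 14 arrays, which left 20738, of which 19938 have 1 symbol. A fit of 3 group means with limma 3.58.1 in R 4.3.3 (lmFit, eBayes) had 11 residual and 3.40 prior degrees of freedom. SE and 95% intervals are moderated. No filter or further normalization was applied, and the fit was tested on simulated data. Beside it stands the exact permutation test over arrays.

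The labels do not say whether arrays are separate mice, so p-values measure the spread between samples. Same-number arrays correlated at −0.39 to 0.36 after subtraction of group means. Arrays of different numbers were not compared, so this cannot show whether same-number arrays are paired. The genes and lists were chosen with earlier results of these data known. All members are named. Of the 4 related lists, genes past the threshold and otherwise the 2 with the largest moderated t per list and comparison are named, with the 3 rows most like each member. Alternatives were array median centring, quantile normalization, trend and robust estimation, the 2 groups alone, no lowest 30% of rows, every row, rows with 1 symbol, mean of a gene's rows, array weights, the replicate block, and leaving out arrays. Promoters were matched by symbol for 9 of the 10 genes.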

Additional observations from a re-analysis of the deposited data

Results flagged for a closer look

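Npy on IKK2-CA array 5 read 8.85, and the nearest other array of its group read 7.98, a gap of 0.726 of the group's range, above the limit of 0.71 that Dixon's test sets for 5 arrays at the 5% level. It was the 1 of 27 combinations of gene and group beyond the limit, and chance passes about 1 in 20. The same array had the highest adipocyte and leukocyte marker means, and their part in this reading was not tested.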

How the results depend on the processing

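Of the 26 alternatives, array median centring, quantile normalization, no lowest rows, rows with 1 symbol, mean of rows and array weights kept Ucn3 and Sst past the threshold in IKK2-CA against control. The count was 1 with trend and robust estimation and 1 with IKK2-CA array 5 and Pdx-1+/- array 4 left out (Sst in both), and 0 with the 2 groups alone, with every row tested, with the replicate block, and without control array 3 as well. Leaving out 1 array gave 0 to 2. The pairing check cannot show whether same-numbered arrays are paired, and the replicate block gave adjusted p = 0.101 for Ucn3 and 0.0708 for Sst (limma). In the other comparisons no alternative gave a count above 0 for the hormone genes. The 8 related genes became 5 with the 2 groups alone, 5 with the replicate block, 21 with array weights, 3 without the 3 arrays, and 3 (without control array 3) to 16 (without control array 2 or IKK2-CA array 4) without 1 array, with 5 without control array 4 or 5. In Pdx-1+/- against control 0 became 2 with array weights and 0 to 2 without 1 array. After array median centring, 0 arrays were beyond Dixon's limit. The cause of these moves was not tested.

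Values that changed sign had not passed before or after. In IKK2-CA against Pdx-1+/-, Gcg was at −0.0065 with median centring, −0.092 with array weights, −0.012 with the replicate block and −0.11 without the 2 or 3 arrays, and Ero1b was at 0.039 without the 2 or 3 arrays. In Pdx-1+/- against control, array weights gave 0.0028 for Ppy and 0.0081 for Npy. There, leaving out the 2 arrays gave 0.0083 for Iapp, 0.082 for Ppy and 0.014 for Npy, and leaving out the 3 arrays 0.024, 0.12 and 0.0054, with Calcb at 0.069. Without 1 array, IKK2-CA against Pdx-1+/- ranged from −0.28 to 0.30 for Npy, −0.48 to 0.035 for Cartpt, −0.16 to 0.047 for Ghrl, −0.16 to 0.052 for Rbp4, −0.079 to 0.047 for Gcg and −0.19 to 0.0027 for Ero1b. Pyy in IKK2-CA against control ranged from −0.21 to 0.068. Pdx-1+/- against control ranged from −0.17 to 0.0037 for Calcb, −0.032 to 0.17 for Pyy, −0.0035 to 0.19 for Nmb, −0.50 to 0.090 for Npy, −0.16 to 0.025 for Adcyap1, −0.14 to 0.0083 for Iapp and −0.24 to 0.082 for Ppy.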
